A study of Mus musculus with 3 samples.

Results

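The Wnt pathway genes described here were 51 of the 55573 genes listed in the UMI-RNAseq dataset of NIH3T3 cells, an established mouse fibroblast line. They were chosen by gene name and not by level. The set took every gene named Wnt or Fzd with a number, and 22 named genes for co-receptors, ligand secretion, secreted inhibitors and signal transduction. All 51 are annotated as protein coding in GENCODE M21 and lie on 16 chromosomes. The data hold 3 libraries of untreated cells grown in DMEM with fetal bovine serum, named library 1, library 2 and library 3 after the numbers in their labels. The libraries share 1 condition, so no treatment or genotype was compared. Nothing in the sources used here says whether they came from separate cultures, so an SD here can be technical alone. UMI-RNAseq marks each molecule with a random tag, so that PCR copies can be removed before counting. Levels are in FPKM, that is, counted fragments scaled to gene length in kilobases and to the library total in megafragments.

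Wnt proteins are secreted, lipid-modified signals. Porcn adds the lipid and Wls carries the ligand to the cell surface, where Frizzled (Fzd) receptors and the co-receptors Lrp5 and Lrp6 bind it. Without a signal, a complex of Axin, Apc and the kinases Gsk3a and Gsk3b marks β-catenin, the product of Ctnnb1, for destruction. With a signal, Dishevelled (Dvl) proteins hold this complex back, and β-catenin enters the nucleus to act with Tcf and Lef factors. Some ligands, Wnt5a among them, are best known for signals that do not use β-catenin. In fibroblasts, the pathway is known for its part in growth, matrix production and wound repair.

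Library totals were 13959723 to 14423209 counted fragments. The cell type in the labels was checked against marker lists. Of 12 fibroblast genes, 11 had a mean of at least 1 FPKM, from Pdgfrb at 31.6 ± 1.06 (SD, n = 3) to Fn1, which encodes fibronectin, at 4377 ± 86.1 (SD, n = 3), while Postn had 0.494. The extraction text in the labels speaks of retinas. Of 12 retina genes, 1 reached 1 FPKM, which was Rbpms at 57.2 ± 3.32 (SD, n = 3), a gene also used outside the retina, and Nrl and Grm6 were listed at 0. Of 10 epithelial genes 1 reached the limit, Krt14 at 8.39, with Epcam, Krt18, Krt5 and Esrp1 listed at 0. None of 10 lymphoid genes did, with a highest mean of 0.145 for Cd79a and 4 genes, Cd3e among them, listed at 0. The summed level in libraries 1, 2 and 3 ranged from 9832 to 9953 FPKM for the fibroblast list, from 56.0 to 61.6 for the retina list, from 8.76 to 9.16 for the epithelial list and from 0.104 to 0.538 for the lymphoid list.

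Most of the genes that act at the membrane and inside the receiving cell were detected, with 1 FPKM taken as the limit, whereas most ligands and all secreted inhibitors lay below it. Of the 51 genes, 24 had a mean of at least 1 FPKM (47.1%), against 49.2% of the 21980 protein-coding genes and 23.2% of all genes listed. Among the 24 ligands and secreted inhibitors, 2 reached this limit, and among the other 27 genes, 22 did. A mean of at least 10 FPKM was found for 17 of the genes, where the share among protein-coding genes was 35.6%. Another 8 genes (15.7%) were listed at 0 in every library, and 28.2% of protein-coding genes were. The median of the 51 means was 0.914 FPKM, and it was 0.804 over all protein-coding genes. The genes nearest the limit were Porcn above it, at 2.93 FPKM, and Wnt2b below it, at 0.942. Since there is 1 condition, these counts were set beside the background without a test.

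**Figure D1:**
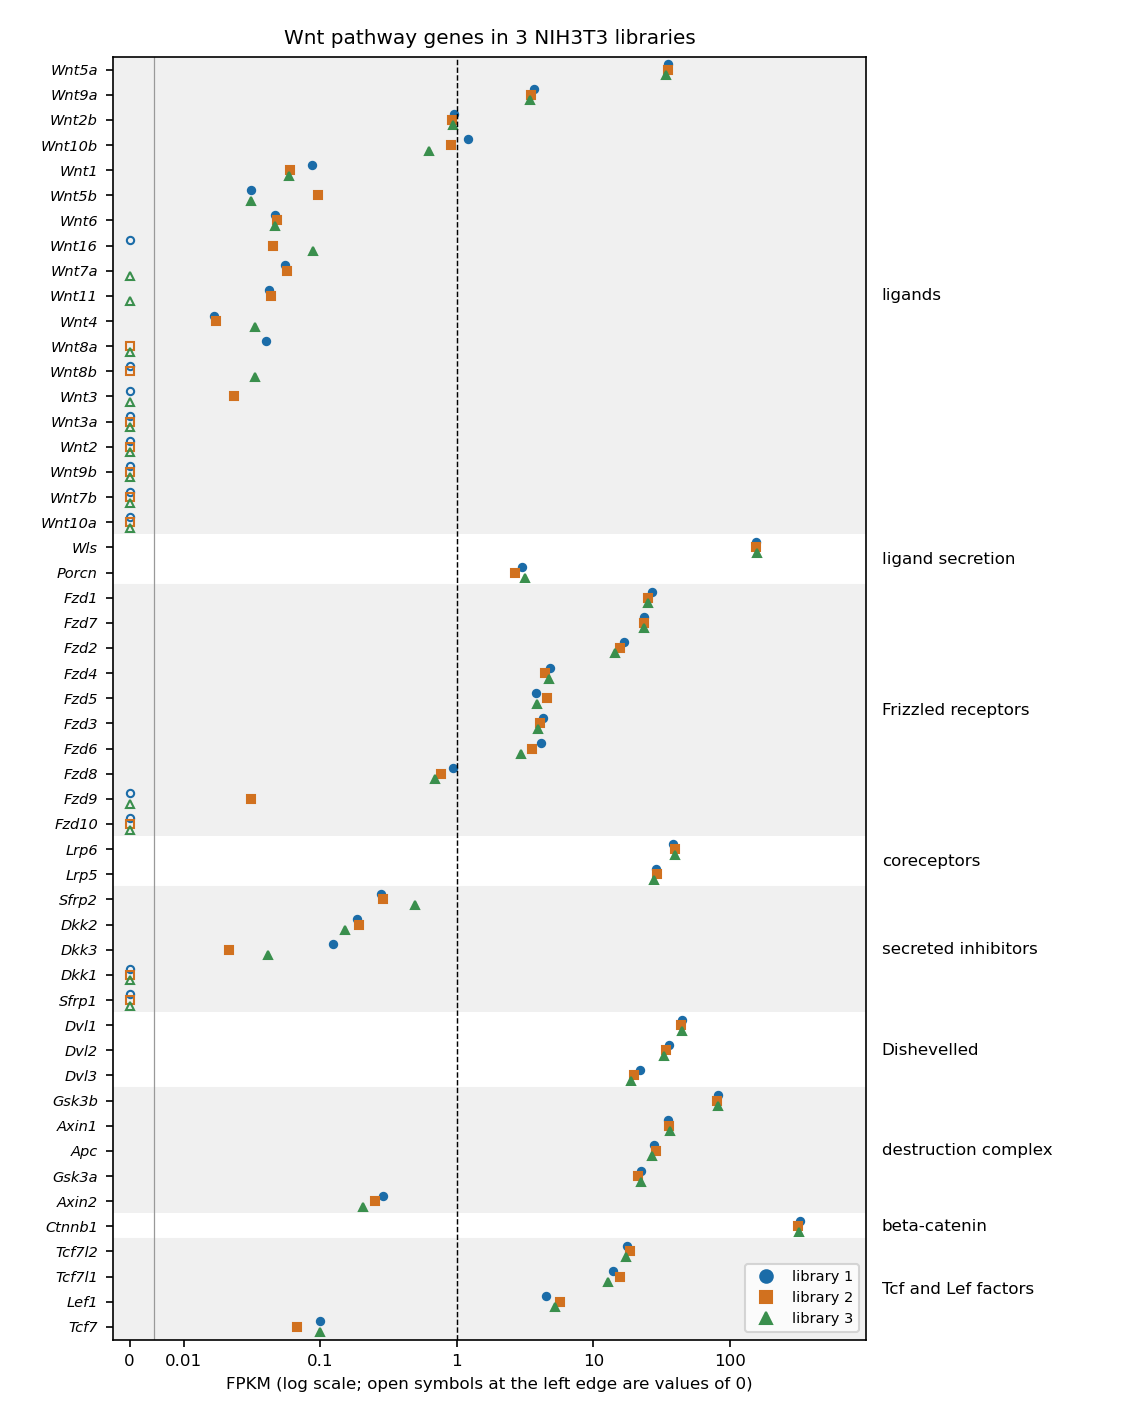
FPKM of each of the 51 Wnt pathway genes (rows, grouped by role) in libraries 1, 2 and 3 (symbols) on a log axis, with open symbols at the left edge for values of 0 and a dashed line at 1 FPKM. Ctnnb1 lies highest at about 321.7 FPKM on average, Wnt5a and Wnt9a are the ligands with every symbol right of the line, and the 5 secreted inhibitors all lie left of it.

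Among the 19 ligands, Wnt5a stood far above the rest. Wnt5a (ENSMUSG00000021994, chromosome 14 from 28504750 to 28527448, plus strand, GRCm38) had 35.1 FPKM in library 1, 35.4 in library 2 and 34.0 in library 3. Its mean was 34.8 ± 0.773 (SD, n = 3), at rank 4000 of the 12905 genes over the limit. Wnt9a was the other ligand over the limit, with 3.70, 3.497 and 3.43 FPKM in libraries 1, 2 and 3. The values of Wnt5a and Wnt9a did not overlap, and all 3 libraries gave the same order.

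Wnt2b and Wnt10b followed just under 1 FPKM and could not be ordered, since their ranges overlapped. Wnt2b had 0.959, 0.929 and 0.937 FPKM in libraries 1, 2 and 3. Wnt10b had 1.21, 0.907 and 0.627 FPKM, which rested on 33, 24 and 17 fragments. Its coefficient of variation over the libraries was 31.8%, against 20.1% from counting error alone. The difference between libraries was not called (chi-square test, adjusted p = 0.626 over all genes tested). With so few fragments, this does not show that the spread is counting error alone. The next 10 ligands, in falling order of their mean Wnt1, Wnt5b, Wnt6, Wnt16, Wnt7a, Wnt11, Wnt4, Wnt8a, Wnt8b and Wnt3, had means from 0.0688 down to 0.00776 FPKM. Each of them rested on 7 fragments or fewer over all libraries, so their order is not resolved at this depth. Wnt3a, Wnt2, Wnt9b, Wnt7b and Wnt10a were listed at 0 in every library. For these 5, a limit of 3 fragments over all libraries allows a level of up to 0.0156 FPKM for Wnt9b, the lowest, and of up to 0.0453 FPKM for Wnt10a, the highest. These limits and the intervals given here cover counting error only.

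Of the summed ligand FPKM, Wnt5a held 85.0%, 86.1% and 86.5% in libraries 1, 2 and 3. The mean share was 85.9% ± 0.772 (SD, n = 3). Wnt9a held 8.73% ± 0.230 (SD, n = 3). The share of Wnt5a fell to 69.1% when the longest annotated isoform, of 7010 nt, replaced the mean isoform length of 2293 nt that the FPKM had used. This setting was chosen with the values known. Wnt5b, the closest paralog of Wnt5a, had 1, 3 and 1 fragments in libraries 1, 2 and 3. Per length and over all libraries, Wnt5a was 669-fold higher than Wnt5b, with an exact 95% counting interval from 286 to 2062 (Clopper-Pearson, on 3409 and 5 fragments). In settings also chosen with the values known, the ratio was 231 (interval 98.7 to 711) with the longest isoforms and 1116 (interval 309 to 9222) without library 2, which held 3 of the 5 Wnt5b fragments.

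The genes for ligand secretion differed by more than an order of magnitude. Wls (ENSMUSG00000028173, chromosome 3 from 159839672 to 159938664, plus strand) had 156 FPKM in libraries 1 and 2 and 159 in library 3. Its mean was 156.9 ± 1.43 (SD, n = 3) and the second highest of the 51 genes. Porcn had 3.001, 2.65 and 3.14 FPKM in libraries 1, 2 and 3, from 65 to 79 fragments per library. Wls exceeded Porcn 52.1-fold, 58.8-fold and 50.4-fold in libraries 1, 2 and 3, a log2 ratio of 5.75 ± 0.12 (SD, n = 3).

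The Frizzled receptors fell into levels that the libraries kept apart. Fzd1 was the highest, with 27.1, 25.1 and 24.96 FPKM in libraries 1, 2 and 3. Fzd7 had 23.5 FPKM in each library, and its highest value lay below the lowest of Fzd1. Fzd2 had 16.9, 15.7 and 14.3 FPKM, below Fzd7 in all libraries. These 3 genes together held 79.1% ± 0.394 (SD, n = 3) of the summed Frizzled FPKM, and Fzd1 alone 31.3% ± 0.512.

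A second level held Fzd4, Fzd5, Fzd3 and Fzd6, whose means were 4.65, 4.09, 4.09 and 3.54 FPKM. In libraries 1, 2 and 3, Fzd4 had 4.79, 4.39 and 4.77 FPKM and Fzd3 had 4.25, 4.07 and 3.94. As deposited, neighbouring ranges of the 4 genes overlapped, so no order among neighbours was resolved, although Fzd3 lay above Fzd6 within each of the 3 libraries. With the longest isoforms, the means of Fzd4, Fzd5, Fzd3 and Fzd6 were 4.65, 2.90, 2.11 and 1.68 FPKM. Neighbouring ranges then did not overlap, so the shared level of these 4 genes depends on the length used. Fzd8 had 0.9401, 0.767 and 0.690 FPKM, below all of these and above Fzd9. Fzd9 rested on 1 fragment, in library 2, and Fzd10 was listed at 0. Fzd1 and Fzd2 share 6 stretches of 75 nt, of the 4123 and 3589 in their transcripts, and Fzd7 shares none with any other annotated gene. Fzd5 shares more, 15.7% of its stretches, the most with Gm38058, a gene on the opposite strand with 0.0161 FPKM. Fzd6 shares 1.6%.

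Both co-receptors, which bind ligand together with a Frizzled receptor, were detected. Lrp6 had 38.6, 39.6 and 40.0 FPKM in libraries 1, 2 and 3, and Lrp5 had 28.7, 29.4 and 28.1. The log2 ratio of Lrp6 to Lrp5 was 0.46 ± 0.05 (SD, n = 3) as deposited. It reversed to -0.35 ± 0.05 with the longest isoform of each gene, since that of Lrp6 is 3.16 times the mean length of its 6 isoforms and that of Lrp5 is 1.81 times the mean of 4. Which co-receptor is the more abundant transcript therefore depends on the length used.

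The secreted inhibitors chosen were low or listed at 0. Sfrp2, which binds Wnt ligands outside the cell, had 0.279, 0.288 and 0.492 FPKM in libraries 1, 2 and 3, from 4, 4 and 7 fragments. Its exons overlap those of the antisense gene Gm26771, which had a higher mean of 0.649 FPKM, over 347 of 2153 nt. Dkk2, a ligand of Lrp5 and Lrp6, had 0.187, 0.193 and 0.151 FPKM, from 10, 10 and 8 fragments. Dkk3, a Dkk relative, had 6, 1 and 2 fragments, and per length Dkk3 stood at 0.354 of Dkk2 over all libraries (exact 95% counting interval 0.147 to 0.773). Without library 1, which held 6 of the 9 Dkk3 fragments, it stood at 0.184 (interval 0.0347 to 0.630). Without library 3, it stood at 0.386 (interval 0.138 to 0.950). Without library 2, it stood at 0.490, with an interval from 0.184 to 1.185 that includes 1, so the order was not resolved there. Sfrp1 and Dkk1 were listed at 0. For them, 3 fragments over all libraries would correspond to 0.0161 and 0.0289 FPKM.

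**Figure D2:**
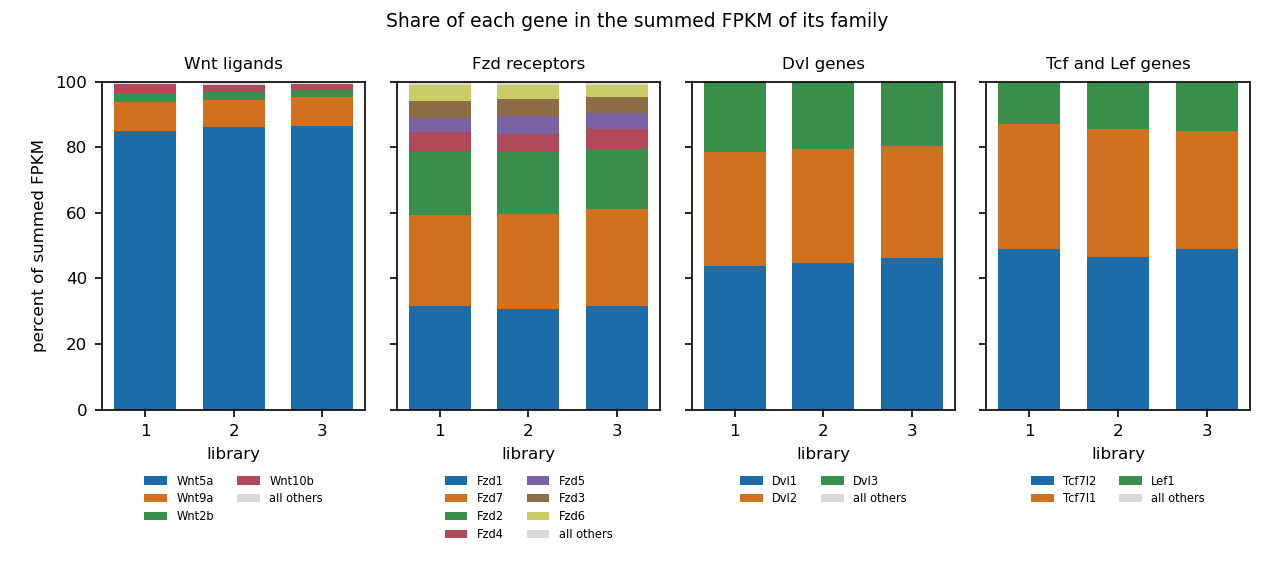
Stacked bars give the percentage of the summed FPKM of 4 families (Wnt ligands, Fzd receptors, Dvl genes, Tcf and Lef genes) held by each gene in libraries 1, 2 and 3, with genes under 2% on average joined as all others. Wnt5a takes 85.0% to 86.5% of the ligand bars, whereas the highest Fzd, Dvl and Tcf genes take under 50% of theirs.

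Inside the receiving cell, the 3 Dishevelled genes were all expressed, and their ranges did not overlap as deposited. Dvl1 had 45.0, 43.6 and 44.7 FPKM in libraries 1, 2 and 3, Dvl2 had 35.6, 34.0 and 33.1, and Dvl3 had 22.0, 19.9 and 19.0. Dvl2 lay below Dvl1 by a log2 ratio of -0.38 ± 0.05 and Dvl3 by -1.13 ± 0.10 (SD, n = 3 each). With the longest isoforms, these log2 ratios were -0.60 and -0.73. The ranges of Dvl2 (15.9 to 17.1 FPKM) and Dvl3 (14.1 to 16.2 FPKM) then overlapped. The exons of Dvl2 overlap those of Acadvl, a gene on the opposite strand with 31.3 FPKM, over 1151 of 6298 nt, and whether the counting used strand is not given in the sources used here.

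In the destruction complex, Gsk3b was the most abundant transcript and Axin2 the least. Gsk3b had 82.7, 80.4 and 81.5 FPKM in libraries 1, 2 and 3, and its paralog Gsk3a had 22.2, 21.4 and 22.3. Gsk3b exceeded Gsk3a by 3.71-fold ± 0.0579 (SD, n = 3), a log2 ratio of 1.89, which became 0.55 with the longest isoform of each gene. Axin1, the scaffold of the complex, had 35.3, 35.8 and 36.4 FPKM. Apc had 27.8, 28.9 and 27.1 FPKM, below Axin1 and above Gsk3a in every library as deposited. With the longest isoforms, Apc (9.24 FPKM) fell below Gsk3a (18.3), because the longest Apc isoform of 12811 nt is 3.02 times the length the FPKM had used. Of the 75-nt stretches in Gsk3a transcripts, 22.6% also occur in other genes, most of them in 9130221H12Rik, an antisense gene with 0.874 FPKM.

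Axin2, the scaffold gene known as a feedback target of β-catenin, had 0.285, 0.253 and 0.206 FPKM in libraries 1, 2 and 3, from 7, 6 and 5 fragments. Its pooled level was 0.248 FPKM with a 95% Poisson interval from 0.147 to 0.392. The ratio of Axin1 to Axin2 was 124, 142 and 177 in libraries 1, 2 and 3, with a log2 ratio of 7.19 ± 0.26 (SD, n = 3). With a pseudocount of 1 FPKM added to each gene, the log2 ratio was 4.88.

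Ctnnb1 (ENSMUSG00000006932, chromosome 9 from 120929216 to 120960507, plus strand), which encodes β-catenin, had the highest level of the 51 genes. It had 326.7 FPKM in library 1, 318.1 in library 2 and 320.3 in library 3, from 6377 to 6767 fragments per library. Its mean of 321.7 ± 4.48 (SD, n = 3) had rank 272 of the 12905 genes over the limit. Ctnnb1 lay 11.5-fold ± 0.460 (SD, n = 3) above Apc, a log2 ratio of 3.53, which became 1.97 with fragments not divided by length. Of its 15 annotated isoforms the longest has 3623 nt, against the 1436 nt used, and per longest isoform its mean was 127.5 FPKM, still the highest of the 51. The exons of Ctnnb1 overlap those of Ulk4, on the opposite strand with 0.888 FPKM, over 759 of 5192 nt.

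Among the Tcf and Lef factors, which bring β-catenin to DNA, 3 of 4 were over 1 FPKM. Tcf7l2 had 17.8, 18.7 and 17.4 FPKM in libraries 1, 2 and 3, and Tcf7l1 had 13.9, 15.7 and 12.9. These ranges did not overlap, and the log2 ratio of Tcf7l2 to Tcf7l1 was 0.35 ± 0.09 (SD, n = 3). It was 1.00 with fragments not divided by gene length and 0.71 with the longest isoforms. Lef1 had 4.52, 5.67 and 5.24 FPKM. Tcf7 had 0.0987, 0.0680 and 0.0995 FPKM, from 3, 2 and 3 fragments, and per length it stood at 0.0173 of Lef1 (exact 95% counting interval 0.00744 to 0.0344). Tcf7l2 held 48.2% ± 1.33 (SD, n = 3) of the summed FPKM of the 4 genes.

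Of the 13 pairs of paralogs or partners chosen, 9 had at least 0.1 FPKM for both genes in every library and were tested. Their log2 ratios were tested by exact sign-flip permutation (two-sided), with p = 0.25 for each pair and 0.25 after Benjamini-Hochberg adjustment over the 9 pairs. With 3 libraries no smaller p can be had, and no ratio could pass 0.05. Each ratio had the same sign in 3 of 3 libraries, and each mean was larger than its SD. The smallest in relation to its SD was Tcf7l2 to Tcf7l1. The ratio of Fzd7 to Fzd2 was 1.40, 1.502 and 1.64 in libraries 1, 2 and 3, a log2 ratio of 0.59 ± 0.12 (SD, n = 3).

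**Figure D3:**
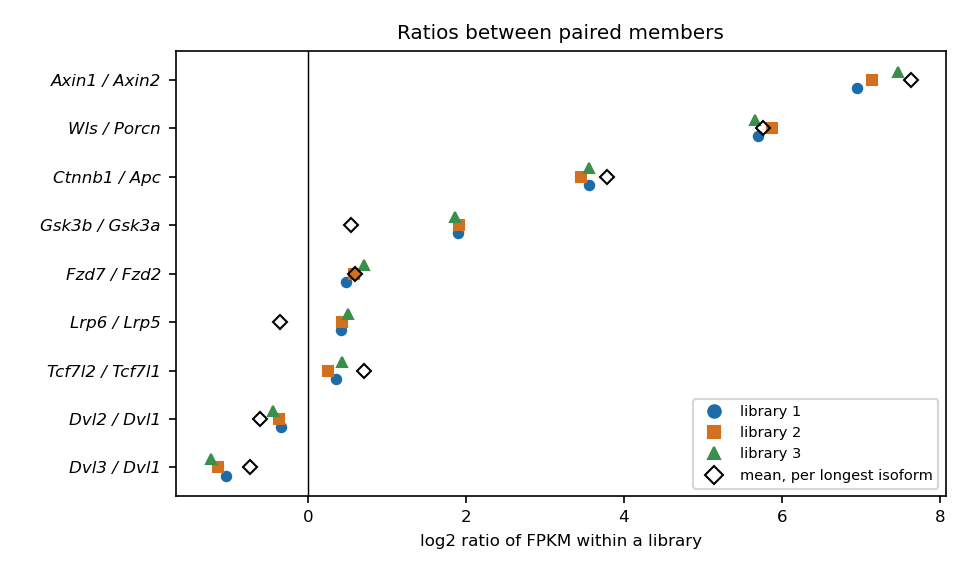
Log2 ratio of FPKM within each of libraries 1, 2 and 3 (symbols) for the 9 pairs tested, with open diamonds for the mean ratio per longest isoform. Axin1 to Axin2 lies at 7.19 on average with no pseudocount added (4.88 with a pseudocount of 1), and Lrp6 to Lrp5 is the 1 pair whose diamond lies on the other side of 0, at -0.35.

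The libraries gave nearly the same levels for these genes. Among the 24 genes at 1 FPKM or more, the coefficient of variation over the libraries ranged from 0.0867% for Fzd7 to 17.3% for Fzd6, with a median of 3.68%. It exceeded the value from counting error alone in 12 of the 24. The same count was not made over all genes, so 12 of 24 cannot be called high or low. The fragments of 29 of the 51 genes were numerous enough for a chi-square test between libraries, which compares libraries and not conditions. None passed an adjusted p of 0.05, while 1.84% of the 15142 genes tested did. At an unadjusted p under 0.05 there were 5 of 29 (17.2%), with 9.09% as the background.

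These 5 genes were Fzd1, Fzd2, Fzd5, Fzd6 and Dvl3, and the lowest adjusted p was 0.186, for Fzd2. Library 1 was the highest of the libraries in 4 of them, and library 3 the lowest in 4. This order was not counted in genes outside the set, so it is not shown to be particular to these genes. Fzd6 had 4.16, 3.53 and 2.93 FPKM in libraries 1, 2 and 3, from 123, 101 and 86 fragments. Fzd5 was the exception to this order, with 3.83, 4.59 and 3.86 FPKM.

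**Figure D4:**
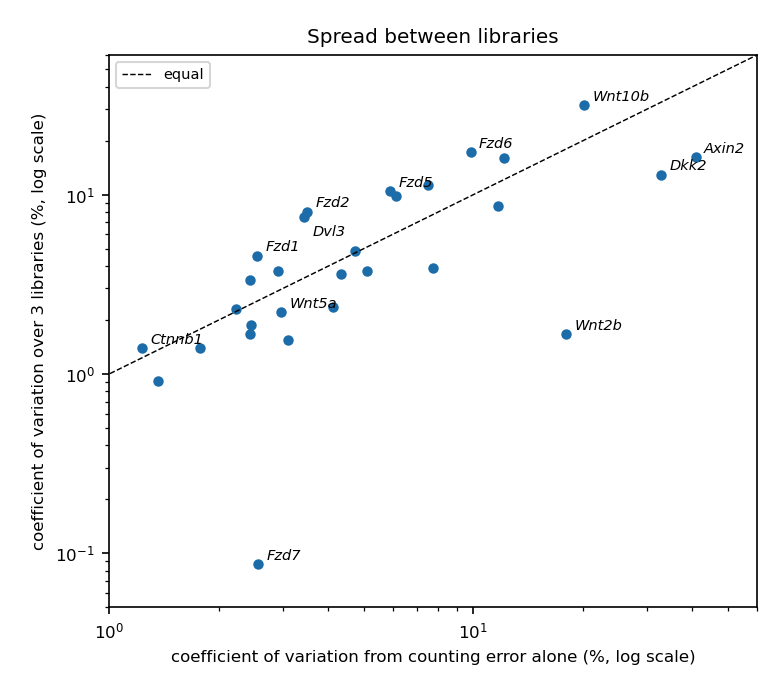
Coefficient of variation of FPKM over 3 libraries (vertical, log axis) against the value expected from counting error alone (horizontal, log axis) for the 29 genes tested, with a dashed line where both are equal and some genes named. Fzd7 lies far below the line at 0.0867%, and Fzd2, Dvl3 and Fzd6 lie above it.

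Wnt pathway genes outside the set were counted in 5 lists chosen together with it. Of 18 partners of the destruction complex, all 18 had a mean of at least 1 FPKM, led by Ppp2r1a, a phosphatase scaffold, at 239 ± 2.66, Csnk1a1, the casein kinase that primes β-catenin, at 179 ± 1.94, and Csnk1d at 141 ± 1.69 (SD, n = 3 each). Of 17 nuclear partners of β-catenin or of the Tcf and Lef factors, 16 did, and Pygo1 was listed at 0. This list was led by Aes at 273 ± 13.9, Ldb1 at 79.7 ± 2.03 and Ep300 at 69.6 ± 1.54 (SD, n = 3 each). Of 14 non-canonical receptors and planar polarity genes, 11 had a mean of at least 1 FPKM. The highest were Ryk, a Wnt receptor outside the Frizzled family, at 77.8 ± 0.513, Vangl1 at 37.1 ± 0.948 and Daam1 at 18.5 ± 0.552 (SD, n = 3 each).

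The picture differed for the list of other Wnt ligand agonists and surface regulators, which also holds secreted inhibitors such as Sfrp5 and Dkk4. Of its 24 genes, 4 reached 1 FPKM. These were Kremen1 at 16.5 ± 0.201, the R-spondin receptor Lgr4 at 15.3 ± 0.780, the ubiquitin ligase Znrf3 at 8.24 ± 0.347 (SD, n = 3 each) and Tmem67 at 3.56. A further 9 were listed at 0, and these were Sfrp5, Dkk4, Frzb, Notum, Ndp, Sostdc1, Sost, Cthrc1 and Gpc4. The median of the list was 0.0163 FPKM.

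Genes known as targets of β-catenin fell at both ends of the scale. Outside the 51 genes, 6 of 13 had a mean of at least 1 FPKM. The highest were Myc at 246 ± 6.11, Ccnd1 at 178 ± 2.52 and Cd44 at 112 ± 0.777 (SD, n = 3 each). Myc, Ccnd1 and Cd44 are also regulated by many other signals. Ccn4 at 46.4, Znrf3 at 8.24 and Apcdd1 at 8.20 FPKM followed. Whether β-catenin signalling was active was not tested. Nkd1, Nkd2, Notum, Sp5 and Tnfrsf19 were listed at 0. Of the 4 targets within the set, Lef1 had a mean of 5.14 FPKM, Axin2 of 0.248 and Tcf7 of 0.0887, and Dkk1 was listed at 0.

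Promoter sequence was available for 36 of the 51 genes in RefSeq windows of 300 bases around annotated starts (GRCm38.p6). CpG dinucleotides were counted in each window and averaged over the windows of a gene. The 21 genes below 1 FPKM had a median of 29.0 CpG, and the 15 genes at 1 FPKM or more had a median of 24.0. These 15 are a part of the 24 genes at that level. Wnt5a, the leading ligand, had no window, nor had Fzd2, Lrp5, Lrp6, Axin1 and Apc. Over all protein-coding genes with a window, the median was 4 CpG for the 7938 genes below 1 FPKM and 21 for the 8642 at or above it. Among the 21 genes below 1 FPKM, 14 had at least 24.0 CpG. The averages per gene ranged from 6 to 53 in the genes below 1 FPKM and from 11 to 58 in the others, so the groups overlapped. Single windows held from 4 CpG, in Wnt5b, to 58, in Wnt9a. This is a description without a test. Below, 3 of the windows are printed with CpG in capitals. They are a window of Ctnnb1, the gene with the highest level (chr9:120933150-120933449, plus strand, 46 CpG), the window of Wnt3a, a gene listed at 0 whose window had the highest GC content of the 36 genes (chr11:59290702-59291001, minus strand, 45 CpG), and that of Wnt8b, the gene with the fewest CpG on average over its windows (chr19:44493222-44493521, plus strand, 6 CpG).
Ctnnb1: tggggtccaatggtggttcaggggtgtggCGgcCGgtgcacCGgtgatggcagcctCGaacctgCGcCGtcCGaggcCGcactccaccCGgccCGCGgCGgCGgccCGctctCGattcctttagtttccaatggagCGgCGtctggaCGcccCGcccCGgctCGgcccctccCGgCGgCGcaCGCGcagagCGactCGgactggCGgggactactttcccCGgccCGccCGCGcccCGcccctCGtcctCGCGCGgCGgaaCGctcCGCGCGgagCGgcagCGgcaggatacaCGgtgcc
Wnt3a: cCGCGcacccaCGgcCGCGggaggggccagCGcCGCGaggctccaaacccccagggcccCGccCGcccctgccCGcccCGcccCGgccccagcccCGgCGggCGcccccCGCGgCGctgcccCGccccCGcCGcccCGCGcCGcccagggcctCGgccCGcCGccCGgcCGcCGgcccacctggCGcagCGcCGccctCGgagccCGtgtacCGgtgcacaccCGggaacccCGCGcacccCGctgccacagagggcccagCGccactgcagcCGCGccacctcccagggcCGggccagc
Wnt8b: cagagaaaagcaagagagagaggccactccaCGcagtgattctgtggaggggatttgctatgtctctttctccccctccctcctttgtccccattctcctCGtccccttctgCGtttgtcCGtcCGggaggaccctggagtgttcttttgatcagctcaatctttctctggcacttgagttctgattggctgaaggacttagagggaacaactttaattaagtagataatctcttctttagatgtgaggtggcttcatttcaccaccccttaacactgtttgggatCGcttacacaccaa

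Ctnnb1 and Wnt3a, the gene with the highest level and a gene with no fragment, had 46 and 45 CpG in these windows. The core motif of Tcf and Lef factors, CTTTGAT, was searched for on both strands. It was found in 2 of the 45 windows of the 36 genes, and in 3.73% of all 32851 windows. The 2 windows belong to Wnt5b and Wnt11, which both had under 0.1 FPKM and have 3 and 2 windows. It was not found in the Axin2 window, which says only that these letters are absent from those 300 bases.

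**Figure D5:**
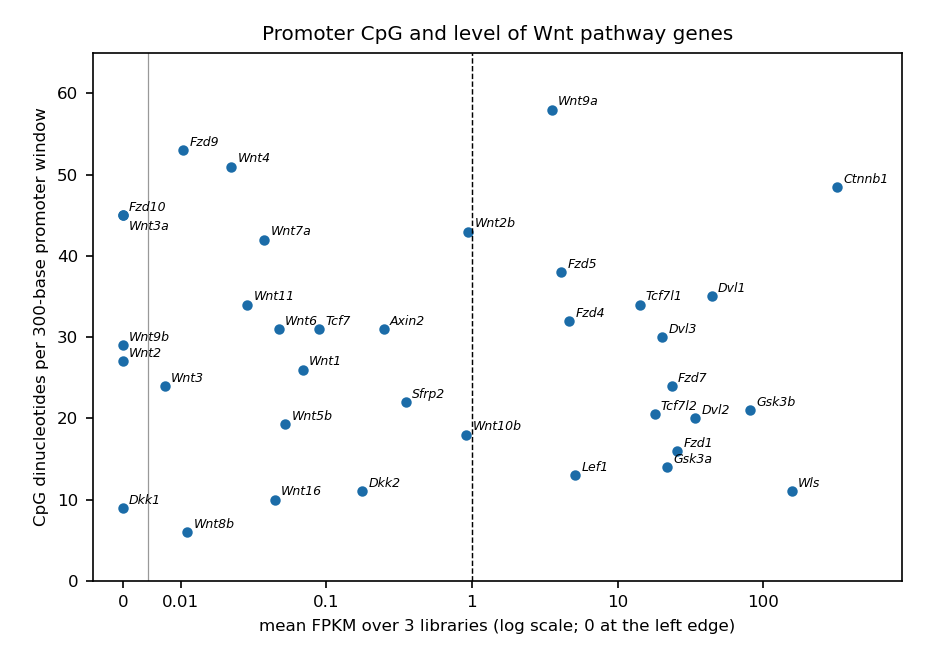
Mean number of CpG dinucleotides per 300-base promoter window (vertical) against mean FPKM over 3 libraries (horizontal, log axis, 0 at the left edge) for the 36 Wnt pathway genes with a window, with a dashed line at 1 FPKM. Genes left of the line, such as Fzd9 with 53.0 and Wnt4 with 51.0 CpG, cover nearly the same vertical range as genes right of it.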

How the data were processed

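FPKM values were deposited by the authors for 3 libraries of NIH3T3 cells. By the study's methods, UMI-tools (1.0.0) read the UMIs, HISAT2 (2.0.4) aligned the reads, copies at 1 position with 1 UMI were dropped, HTSeq (0.6.1) counted reads per gene, and FPKM was computed from count and gene length. The submitters' processing notes also name DESeq (1.10.1), whose role is not given in the sources used here. The build and annotation are not given in the sources used here. The study's imaging was not analysed here. Both tables hold the same values, and 0 columns of values were left unused.

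The 51 genes, lists and pairs were chosen with earlier results of these data known. Fragments were recovered as FPKM × length × library total, with the mean isoform length of GENCODE M21 (GRCm38), and came out whole (within 0.001) in every library for 25966 of 26193 genes with a fragment (99.1%), and for all 51 genes here. Recovery and the chi-square test were tested on simulated data. The chi-square test compared fragments between libraries for genes with at least 5 expected fragments per library, with Benjamini-Hochberg adjustment over 15142 genes. Log2 ratios were tested by exact two-sided sign-flip permutation. Intervals were Poisson or Clopper-Pearson at 95%. Words of 75 nt were compared on both strands with all annotated transcripts, of which 31 of the 51 genes shared none. Every gene of the set was accounted for, those at 1 FPKM or more with the value of each library. Of other pathway lists, at least the 3 highest genes and those listed at 0 were named, and of marker lists the highest and lowest. Python 3.11.15, numpy 2.4.6, pandas 2.3.3, scipy 1.17.1 and matplotlib 3.10.9 were used. RefSeq promoter windows matched 36 genes by symbol.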

Additional observations from a re-analysis of the deposited data

How the results depend on the processing

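Of 112 recomputed values, 103 kept the sign of a ratio, stayed within the SD between libraries or, for counts, within 1.5 times. This share overstates stability, because many settings could not change the sign of a ratio. A pseudocount added to both genes or a lifted filter keeps the sign by construction. So does leaving out a library, since all 3 libraries gave the same sign. Only the changes of gene length could reverse a ratio. The log2 ratio of Lrp6 to Lrp5 reversed from 0.46 to -0.28 with fragments not divided by gene length and to -0.35 with the longest isoforms. The number of genes detected rose from 24 to 43 with a mean FPKM above 0 as the limit. With fragments not divided by gene length, the family share of Wnt5a was 83.0%, of Fzd1 29.8% and of Tcf7l2 54.3%. With the longest isoforms, added after the data were examined, these were 69.1%, 33.4% and 51.0%. Leaving out each library in turn gave 24 to 25 genes detected, the 25 arising without library 3, when Wnt10b passed 1 FPKM. With each library rescaled to a total of 1000000, 27 genes had a mean of at least 1. The genes next below the limit as deposited were Wnt2b, Wnt10b and Fzd8, at 0.942, 0.914 and 0.799 FPKM. The chi-square test called 0 of the 51 genes under each alternative, with 2 to 5 at an unadjusted p under 0.05. No samples could be paired between conditions, because the 3 libraries belong to 1 group. Only the genes of a pair were compared within each library. Depth limits the 19 genes below 1 FPKM that had fragments, of which those with 7 fragments or fewer could not be ordered.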
